A study of Mus musculus with 2 samples.

Results

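The Mirg cluster is a run of microRNA genes, from Mir379 to Mir3072, on the plus strand of mouse chromosome 12. Its members were taken by position alone, as every counted microRNA gene that GENCODE M21 places on the plus strand inside a 60 kb window around the Mirg locus (mm10). The nearest plus-strand microRNA genes outside the window, 26.8 kb before the first member and 926 kb after the last, had no counts. The rule gave 39 of the 2202 microRNA genes counted in the series. They were measured in heart tissue of male B6CASTF1/J mice, an F1 hybrid strain, that were 10 days old and carried no stated treatment or engineered allele. The series holds 2 microRNA libraries, biological replicates 1 and 2 of a single group, so every comparison below is between 2 hearts of the same kind and not between conditions. The labels give the libraries separate biological samples but a common donor identifier, and reads of the 2 parental genomes were not counted apart.

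MicroRNAs are short RNAs cut from hairpins in longer transcripts. Each hairpin can give a mature form from its 5′ arm (5p) and one from its 3′ arm (3p), and bases 2 to 8 of a mature form, the seed, do most of the pairing with target mRNAs. The Mirg cluster lies in the imprinted Dlk1-Dio3 region, where the maternal chromosome produces the noncoding RNAs Meg3, Rian and Mirg together with their microRNAs, and the paternal chromosome produces the protein-coding genes. The cluster is found in placental mammals, and it is known from brain and embryonic tissues and from metabolic adaptation of the newborn. In heart, miR-410 and miR-495 have been studied for their effect on the division of newborn heart muscle cells and miR-494 for its effect on ischaemic injury.

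The 39 hairpins spanned 38.9 kb. The lncRNA gene Mirg (ENSMUSG00000097391.8, chromosome 12, 109729764 to 109749460, mm10) covers only the distal part of that span. GENCODE M21 places 25 members upstream of it, from Mir379 (109709060 to 109709125) to Mir544, and 14 inside it, from Mir382 to Mir3072 (109747878 to 109747960). Of those 14, 5 were intronic in every annotated transcript of Mirg, among them Mir154, Mir541 and Mir409. Another 4 lay wholly in an exon (Mir134, Mir485, Mir377 and Mir410), and 5 crossed an exon border.

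RefSeq (GRCm38.p6, the assembly known as mm10) held 38 of the 39 members, Gm27379 being the other, with 71 mature forms and 65 different seeds. Some forms were absent, such as the 3p forms of Mir376c, Mir487b and Mir539 and the 5p form of Mir485. Seeds of absent forms are not in these counts, so a common seed can be missed. The forms below are from the most abundant members, from detected members that share a seed, and, as close relatives, from Mir380 (beside Mir379) and from Mir543 and Mir495. They are written 5′ to 3′ with the seed in capitals. Where 1 arm of a member is shown, the choice does not mark the more abundant form. The counts do not separate the arms. The leading pair of genes, Mir379 and Mir411, has a common 3p seed, AUGUAAC, and 5p seeds that differ at 1 of 7 bases.
miR-379-5p: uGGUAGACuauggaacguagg
miR-411-5p: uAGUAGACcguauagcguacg
miR-1193-5p: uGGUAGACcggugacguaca
miR-379-3p: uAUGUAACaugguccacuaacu
miR-411-3p: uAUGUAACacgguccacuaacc
miR-380-3p: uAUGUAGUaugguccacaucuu
miR-541-5p: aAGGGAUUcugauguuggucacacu
miR-382-5p: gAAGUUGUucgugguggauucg
miR-154-5p: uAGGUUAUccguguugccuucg
miR-409-3p: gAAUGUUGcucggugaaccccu
miR-376c-5p: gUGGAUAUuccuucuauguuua
miR-376b-5p: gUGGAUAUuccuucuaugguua
miR-494-5p: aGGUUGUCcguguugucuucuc
miR-410-5p: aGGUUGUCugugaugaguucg
miR-543-3p: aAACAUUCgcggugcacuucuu
miR-495-3p: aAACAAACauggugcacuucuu

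Of 6 seeds held by more than 1 member among the RefSeq forms, 4 had both genes detected, where detected means at least 10 counts in both libraries. Those were AUGUAAC (miR-379-3p and miR-411-3p), GGUAGAC (miR-379-5p and miR-1193-5p), GGUUGUC (miR-494-5p and miR-410-5p) and UGGAUAU (miR-376c-5p and miR-376b-5p). The 3p forms of Mir379 and Mir411 differ at 2 of 22 bases over their whole length, and the 5p forms of Mir376b and Mir376c at 1 of 22. Of the 65 seeds, 11 also occurred in a mature form of a gene outside the cluster. The counts are per hairpin and do not separate the arms, so a level below is the sum over both forms and cannot be given to 1 seed.

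The hairpins also had sequence in common that the rule did not use. The string UUCGCU, searched on the transcribed strand and chosen because it was among the most frequent 6-base strings in the members, stood in 10 of 39 member hairpins (25.6%) and in 0.727% of all 2202 hairpins. Only 6 hairpins outside the cluster held it. In 9 of the 10 members it began inside the 5p form and ended past it, at the border to the loop, with 3 to 5 of its bases in the mature form. Mir329 was the exception. The hairpins of Mir154, Mir382 and Mir543 are shown with the string in capitals.
Mir154: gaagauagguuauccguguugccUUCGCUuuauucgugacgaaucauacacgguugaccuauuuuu
Mir382: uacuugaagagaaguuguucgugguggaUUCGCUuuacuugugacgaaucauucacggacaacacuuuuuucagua
Mir543: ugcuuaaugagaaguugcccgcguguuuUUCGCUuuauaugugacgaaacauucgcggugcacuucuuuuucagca
A second string from the same survey, UACUUG, stood in 10 members as well (25.6%) against 2.32% of all hairpins, and 5 members held both strings. It does not overlap UUCGCU in sequence. The median GC content of the member hairpins was 43.6%, against 50.8% over all counted hairpins.

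The libraries held 3748432 microRNA counts in replicate 1 and 6305782 in replicate 2. Levels are given as CPM, counts per 1000000 microRNA counts, and a read stands for a whole mature microRNA, so levels of different members were compared without a length term. How well microRNAs of different sequence enter a library was not measured, so a level is a share of counts and not a measured amount. A count of 0 allows up to 3 counts, or 0.800 CPM (replicate 1) and 0.476 CPM (replicate 2). This limit and the intervals below cover counting error only. Multi-mapping reads are outside the gene counts and made up 36.8% (replicate 1) and 48.1% (replicate 2) of reads. The 3 cardiac muscle microRNAs (Mir208a, Mir208b and Mir499) were all detected, with summed levels of 8268 and 12348 CPM, as the heart label implies. Their log2 ratios of replicate 2 over replicate 1, TMM-scaled as below, were -1.34, 2.26 and 1.18. The sum hides these opposite directions. The 9 genes of the neural list had 24.8 and 18.9 CPM together, mostly from Mir137 (48 and 83 counts) and Mir219a-1, with all 3 Mir124a genes at 0. The Mir124a, Mir9 and Mir219a genes, like Mir199a in the fibroblast list, make a mature form from several copies whose reads can map to each, so their low counts do not show low expression. The summed levels of the fibroblast list were 3934 and 7945 CPM and those of the leukocyte list 1959 and 2192 CPM, and their part in the Mirg values was not tested. Fewer cells of a type and less RNA per cell cannot be told apart in such tissue libraries.

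The Mirg cluster took 1.01% of all microRNA counts in replicate 1, with an exact 95% interval of 1.00% to 1.02%. Its share was 0.830% in replicate 2, with an interval of 0.823% to 0.837%. The intervals do not overlap, and the mean was 0.921% ± 0.129 (SD, n = 2). These are shares of the gene counts, which leave out multi-mapping reads (36.8% and 48.1% of reads). The cluster's share of all heart microRNA is therefore not known. Of the 39 members, 33 were detected, 3 had no count in either library, and 3 had counts in replicate 2 only. The latter were Mir758 with 3 counts and Gm27379 and Mir544 with 1 count each, all within what a count of 0 allows. The median of the mean level was 42.1 CPM over the 33 detected members and 90.3 CPM over the other 307 detected microRNA genes.

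Counts were very uneven along the cluster. Among detected members the mean level spanned a 687-fold range, from Mir379 at the proximal end to Mir410 near the distal end. Only 3 members averaged at least 1000 CPM, 11 averaged at least 100 CPM and 29 at least 10 CPM. By these counts 4 were among the 100 most abundant microRNA genes, and genes whose reads multi-map can rank too low. The 5 leading members (Mir379, Mir411, Mir541, Mir382 and Mir154) held 82.7% of the cluster's counts in replicate 1 and 80.5% in replicate 2, a mean of 81.6% ± 1.55 (SD, n = 2). The 10 leading members held 92.0% and 91.2%.

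**Figure D1:**
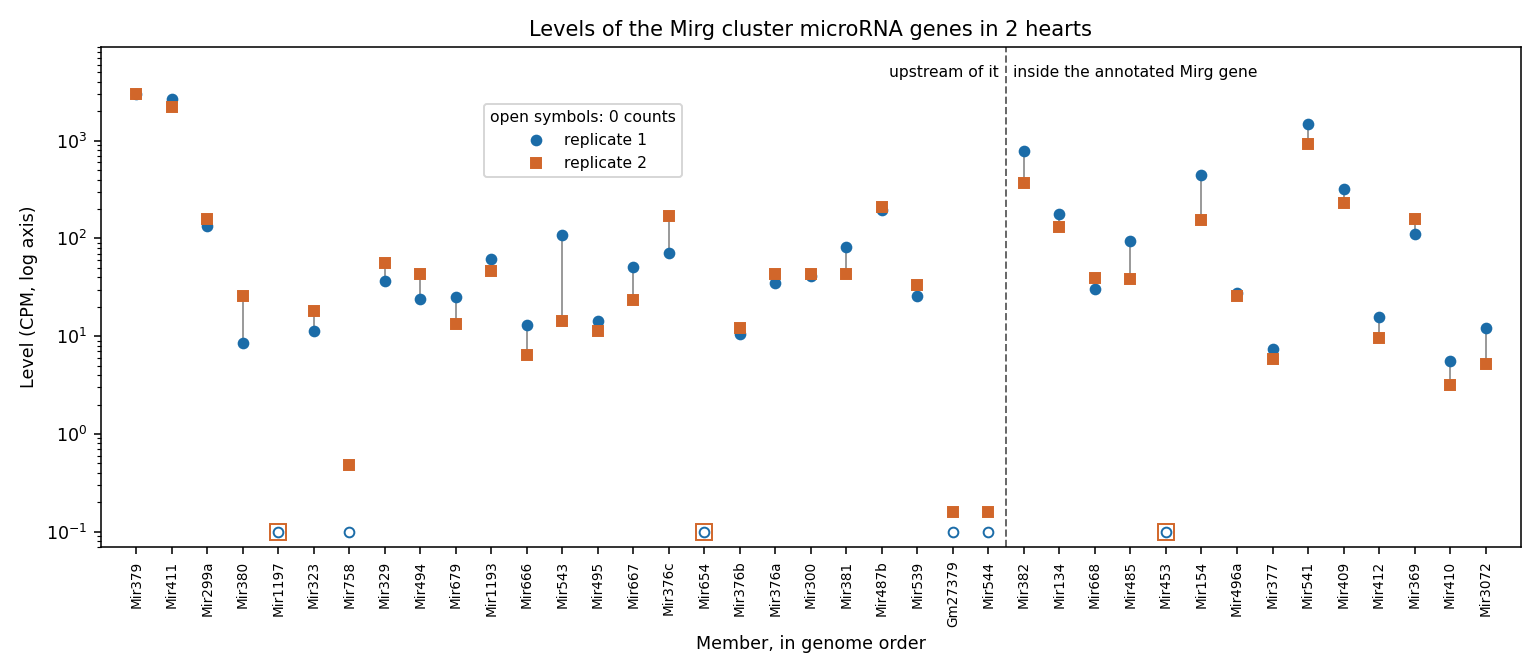
Level of each of the 39 members in CPM on a log axis, in genome order, with replicate 1 as circles and replicate 2 as squares. Open symbols at the foot of the axis mark 0 counts, and the dashed line separates the 25 members upstream of the annotated Mirg gene from the 14 inside it. Mir379, Mir411 and Mir541 stand above all other members, and Mir543 has the widest gap between the hearts.

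Mir379, the first gene of the cluster, was its most abundant member, at 2999.7 CPM in replicate 1 and 3030.4 CPM in replicate 2. Mir411, its neighbour with the common 3p seed, followed at 2661 and 2208 CPM. The hairpins of this pair lie 1.12 kb apart, start to start, and held 55.9% and 63.1% of the cluster's counts. The order of Mir379 over Mir411 was the same in both hearts. Mir1193, whose 5p form has the seed of miR-379-5p, had only 61.1 and 46.1 CPM. Of the hairpin counts of Mir379 and Mir1193, 98.0% and 98.5% came from Mir379. The arms are not separated, so the share of the seed itself is not known.

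Mir541, an intronic member inside Mirg, was next at 1493 and 927 CPM. Mir382 had 784 and 366 CPM and Mir154 had 441 and 153 CPM, and for both genes the heart of replicate 1 was the higher. Mir409 had 320.4 and 231 CPM. Mir541 and Mir382 held places 3 and 4 of the cluster in both libraries, whereas Mir154 held place 5 in replicate 1 and place 10 in replicate 2. Mir409 overlaps a minus-strand gene, Gm24321, that had no count of its own.

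Mir487b had 196 and 209 CPM, Mir134 had 176 and 131 CPM, Mir299a had 135 and 159 CPM, and Mir369 had 111 and 157 CPM. MiR-134 is known from neurons, where it limits the size of dendritic spines. Of these 4, Mir487b was the highest in both hearts. Mir134 was above Mir299a and Mir369 in replicate 1 and below them in replicate 2, so the order of these 3 is not settled by 2 hearts.

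**Figure D2:**
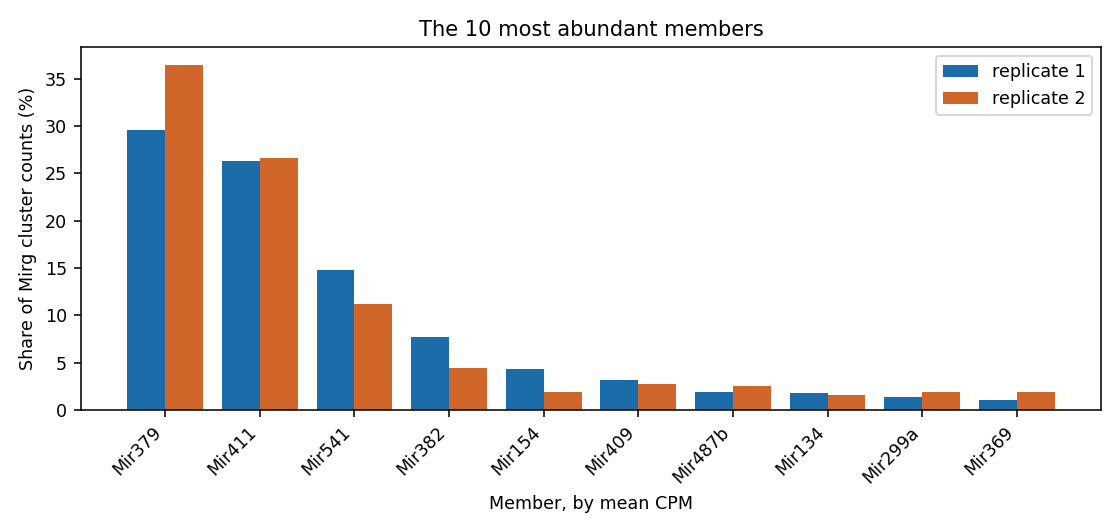
Share of all Mirg cluster counts held by each of the 10 most abundant members, in percent, for replicate 1 and replicate 2. Mir379 and Mir411 together hold 55.9% and 63.1%, and every member after Mir154 holds under 4% in each heart.

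Mir410, Mir495 and Mir494, the members named above for studies in heart, were low. Mir410 had 21 counts in replicate 1 and 20 in replicate 2, or 5.60 and 3.17 CPM, and was the least abundant detected member. Mir495 had 14.1 and 11.4 CPM. Mir494 had 24.3 and 42.8 CPM, so that it gave most of the counts of the GGUUGUC seed pair it forms with Mir410. At 20 to 21 counts the level of Mir410 is known with little precision, and the 95% interval of its log2 ratio between the hearts ran from -1.64 to 0.28.

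The Mir376 genes are close copies, and their transcripts are known targets of adenosine-to-inosine editing. The level of Mir376c was 70.7 CPM (replicate 1) and 168 CPM (replicate 2). Mir376a had 34.7 and 43.6 CPM and Mir376b had 10.4 and 12.1 CPM. Mir376c was the highest of the 3 in both hearts. The hairpins of Mir376b and Mir376c share at least 20 bases, and reads that fit both would be outside the counts, so their levels are uncertain.

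The remaining detected members lay between 5.23 and 109 CPM in each library. Mir543, Mir485, Mir381, Mir667 and Mir1193 had more than 50 CPM in replicate 1, and Mir329 was the member of this group with the highest level in replicate 2, at 55.7 CPM. Mir300, which resembles Mir381 with 3p forms that differ at 3 of 22 bases, had 41.1 and 43.1 CPM. Mir3072, the last member, had 12.0 and 5.23 CPM.

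All reads in the member hairpins ran in the direction of the cluster. The opposite strand had 0 counts over the 39 members in each library. For 5 members a second microRNA gene is annotated on the minus strand at the same place. Mir299a, Mir380, Mir376a, Mir539 and Mir409 together had 1967 and 3106 counts on their own strand, and their minus-strand partners had 0. A count over both strands gives these members 1 and 0 counts, which is why the sense-strand count was used. Another 5 members (Mir411, Mir758, Mir376c, Mir376b and Mir487b) share at least 20 bases of hairpin with another counted hairpin, in each case that of another of these 5. None of the 71 mature forms occurred whole in the hairpin of another counted gene.

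The cluster as a whole was lower in replicate 2 by an amount that depended on the scaling, and its members differed in both directions. Each detected gene was set against counting error by an exact two-sided binomial test after TMM scaling, with Benjamini-Hochberg adjustment at 0.05 over all 340 detected microRNA genes. The test compares 2 libraries and says nothing of a condition. Of the 33 detected members, 26 passed, 12 of them higher and 14 lower in replicate 2, and 7 did not pass. Over all detected microRNA genes 72.1% passed, 34.1% higher and 37.9% lower, and the members' 78.8% is near that background. The median absolute log2 ratio was 0.58 over the members and 0.54 over all detected genes, and the median log2 ratio was -0.17 and -0.049. The summed Mirg counts had a log2 ratio of -0.14 (exact 95% interval -0.16 to -0.13), which became -0.29 without Mir379. With total counts as the scaling it was -0.29 and with DESeq2 size factors -0.067, both outside that interval, so its size depends on the scaling.

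**Figure D3:**
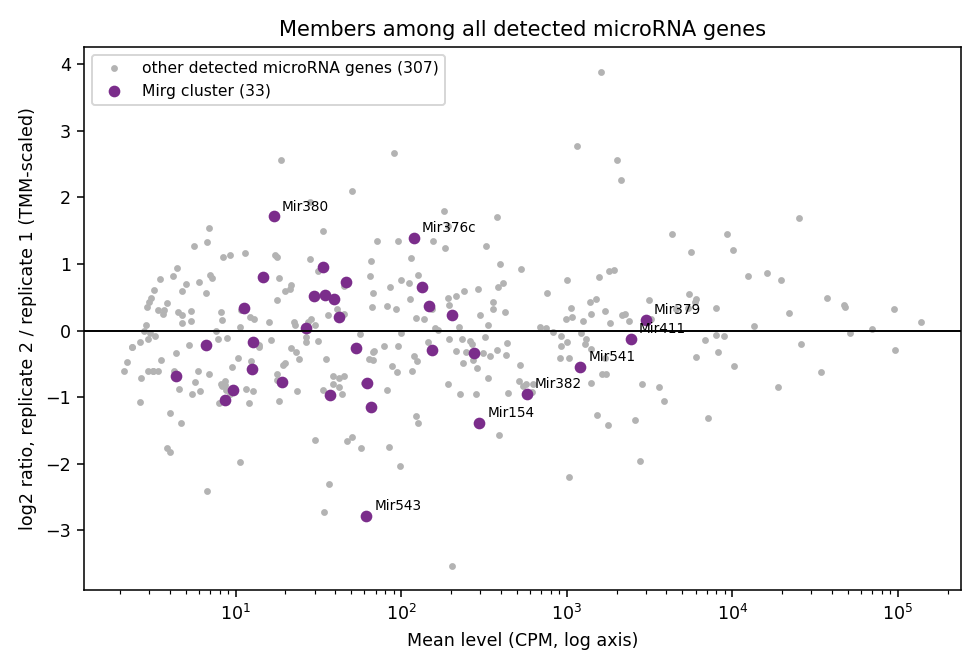
Log2 ratio of replicate 2 over replicate 1 after TMM scaling against mean level in CPM on a log axis, for the 33 detected members and the other 307 detected microRNA genes. The members lie on both sides of 0, from Mir543 at -2.79 to Mir380 at 1.71, within the range of the other genes.

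A difference of at least 2-fold was found for 6 of the 33 members, 18.2%, against 19.7% of all detected genes. Mir543 differed most. It had 409 counts in replicate 1 and 90 in replicate 2, or 109 and 14.3 CPM. With TMM-scaled libraries replicate 2 was 6.90-fold below replicate 1 (log2 ratio -2.79, exact 95% interval -3.14 to -2.46, adjusted p = 4.3e-83). Mir495, whose 3p form resembles that of Mir543 with 4 differences in 22 bases, had a log2 ratio of -0.17 (interval -0.70 to 0.37) and did not pass the test. The next gene upstream, Mir666, passed at 1.86-fold lower.

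Mir154, Mir485 and Mir3072 were the other members lower by at least 2-fold, and all 3 lie inside Mirg. Mir154 was 2.61-fold lower in replicate 2 (log2 ratio -1.38, interval -1.50 to -1.27). Mir485, with 352 and 242 counts, was 2.22-fold lower, and its interval of -1.39 to -0.91 includes differences under 2-fold. MiR-485 is known from the control of synapses. Mir3072, with 45 and 33 counts, was 2.07-fold lower, and its interval of -1.75 to -0.38 includes differences under 2-fold.

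Mir380 and Mir376c were the members higher by at least 2-fold in replicate 2. Mir380 had 32 and 162 counts and was 3.28-fold higher (log2 ratio 1.71, interval 1.18 to 2.33). Its proximal neighbours Mir379, Mir411 and Mir299a had log2 ratios of 0.16, -0.13 and 0.38. The next detected members distal to it, Mir323, Mir329 and Mir494, had 0.81, 0.73 and 0.96. Mir376c had 265 and 1060 counts and was 2.62-fold higher (log2 ratio 1.39, interval 1.20 to 1.59), against 0.47 for Mir376a, which also passed, and 0.35 for Mir376b, which did not.

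**Figure D4:**
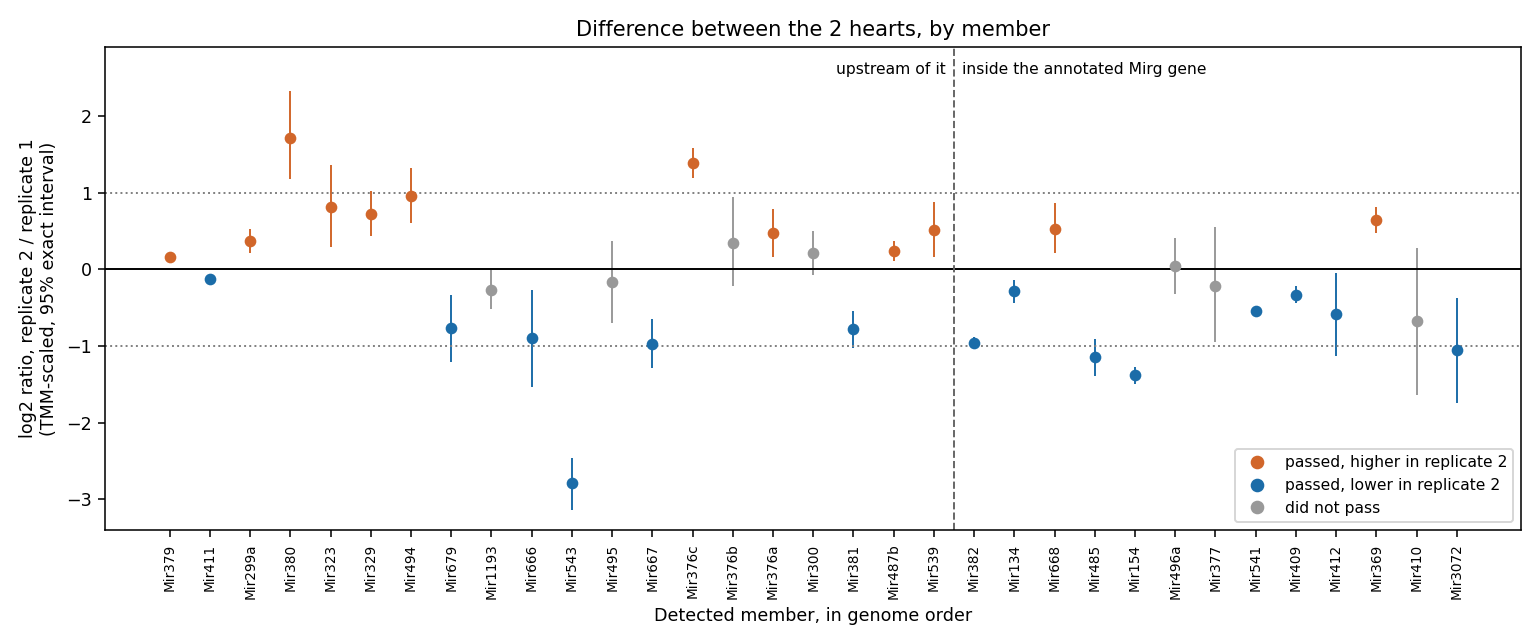
Log2 ratio of replicate 2 over replicate 1 for the 33 detected members in genome order, with exact 95% intervals for counting error. Dotted lines mark 2-fold, colours mark the result of the test, and the dashed line separates members upstream of the annotated Mirg gene from those inside it.

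Of the 10 most abundant members, Mir154 alone differed by at least 2-fold after TMM scaling, and Mir382 did so too with total counts (log2 ratio -1.10). Mir379 was 1.12-fold higher in replicate 2 and Mir411 1.09-fold lower, small differences that passed a test of counting error alone. With total counts as the scaling Mir379 no longer passed (log2 ratio 0.015, adjusted p = 0.454 by the exact binomial test). Mir541 was 1.46-fold lower, Mir382 1.94-fold lower and Mir409 1.26-fold lower. Mir134 was 1.22-fold lower. Mir369 was 1.57-fold higher, Mir299a 1.30-fold higher and Mir487b 1.18-fold higher, and Mir487b also lost its call with total counts (log2 ratio 0.093, adjusted p = 0.206 by the exact binomial test).

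The other members that passed lay at middle and low levels. Mir494, Mir323, Mir329, Mir539 and Mir668 were higher in replicate 2, with log2 ratios of 0.96, 0.81, 0.73, 0.52 and 0.53. Mir667, Mir666, Mir381, Mir679 and Mir412 were lower, at -0.97, -0.90, -0.78, -0.77 and -0.58. Mir412 passed narrowly, with 59 and 60 counts and an adjusted p of 0.043 by the exact binomial test, and did not pass with DESeq2 size factors (adjusted p = 0.085). The 7 members that did not pass were Mir1193, Mir495, Mir376b, Mir300, Mir496a, Mir377 and Mir410. Their log2 ratios ran from -0.68 for Mir410 to 0.35 for Mir376b, and at 20 to 291 counts per library their intervals span from 0.51 to 1.91 log2 units, so they are not shown to be alike in the 2 hearts. Mir1193 was just short of the threshold (log2 ratio -0.26, adjusted p = 0.059 by the exact binomial test) and passed with total counts (-0.41, adjusted p = 0.0028).

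Members upstream of the annotated Mirg gene and members inside it were described side by side, a split chosen after the values were seen and given without a test. Of the 20 detected upstream members, 10 were higher in replicate 2, 6 lower and 4 did not pass, with a median log2 ratio of 0.22. Of the 13 detected members inside Mirg, 2 were higher (Mir668 and Mir369), 8 lower and 3 did not pass, with a median of -0.55. Over all detected genes, 34.1% were higher and 37.9% lower. The summed counts had a log2 ratio of 0.052 upstream and -0.61 inside. The upstream value turned to -0.091 with total counts and was 0.13 with DESeq2 size factors, so it has no settled direction, and the value inside was -0.75 and -0.53. The upstream sum is mostly Mir379 and Mir411.

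The members are thought to be cut from a common precursor, so their proportions within the cluster were compared too. Each member was set against the summed counts of the other members by the same exact binomial test, adjusted over the whole table fitted with the cluster as the scale. By that measure 24 of the 33 members passed, 13 with a larger and 11 with a smaller share of the cluster in replicate 2, against 68.5% of all detected genes. In all, 23 members passed in the same direction against TMM-scaled libraries and against the cluster. The share of all detected genes that did so is not given here. The change of scale shifts most log2 ratios by a similar amount, so this agreement is largely built in. Mir411 changed sign, from -0.13 to 0.024, and did not pass against the cluster, and neither did Mir134 and Mir412, while Mir300 passed only against it. Mir379 held 29.6% of the cluster's counts in replicate 1 and 36.5% in replicate 2. Mir382 had 7.74% and 4.41%, Mir154 4.35% and 1.85%, and Mir376c 0.698% and 2.03%.

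Across the 33 detected members log2(CPM + 1) in replicate 1 correlated with that in replicate 2 at r = 0.934 (Pearson) and rho = 0.882 (Spearman). Over the other 307 detected genes r was 0.973 and rho 0.967. Genes of 1 library share its depth and preparation and are not replicates, so these values are descriptions.

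Other imprinted or clustered microRNA genes give the scale of these values, and the differences between groups of genes were not tested. The 20 plus-strand microRNA genes of the imprinted region that lie proximal to Mir379 took 0.648% and 0.354% of the counts, with 13 detected, of which 2 were higher and 10 lower in replicate 2. Their median log2 ratio was -0.66 and their summed counts had one of -0.73, against -0.17 and -0.14 for the Mirg cluster. The 119 plus-strand microRNA genes within Sfmbt2 took 0.151% and 0.107%, with 7 detected and 102 without a count in either library. Multi-mapping reads are outside these counts, so this small share does not show low expression. How many hairpins within Sfmbt2 lose reads this way was not tested. The X-linked Mir322 cluster took 2.75% and 2.91% from only 7 genes, all of them detected.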

How the data were processed

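MicroRNA sequencing gave 1 table per library for 2 hearts. The values are raw, unnormalized counts of reads for each microRNA gene, as deposited by the authors, on mm10 with annotation M21 per the text deposited beside the tables. Aligner and counter: not given in the sources used here. The column meanings (both strands, gene strand, opposite strand) were inferred from the values, and the gene-strand count was used. The 4 entries that name no gene, 57.6% and 63.0% of all reads, stayed out of totals and tests.

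Library sizes were scaled by TMM in edgeR 4.0.16. Log2 ratios used a prior of 0.5 counts. Intervals are exact Clopper-Pearson 95% intervals (scipy 1.17.1). An exact binomial test ran over 340 genes (10 or more counts in each library), and it was checked on simulated counts. Those counts held counting error only, so the check does not cover spread between animals. Against total counts, TMM shifted every log2 ratio by 0.14, and against DESeq2 1.42.0 size factors by -0.078. Sequences are from RefSeq, and hairpin comparisons used the GENCODE transcripts.

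Members with full values were the 10 most abundant, those called at 2-fold or more, the first and last, and detected pairs with a common seed. Members, lists and tests were chosen with earlier results of these data known. P-values measure only the difference between these libraries.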

Additional observations from a re-analysis of the deposited data

How the results depend on the processing

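No paired analysis was possible because the series has a single group. The counts of detected members and of members called between the hearts or within the cluster stayed within 1.5 times of their values under every alternative run; called members ranged from 20 with both-strand counts to 26. The number differing by at least 2-fold ranged from 4 with a minimum of 50 counts to 9 with total counts, against 6. All 26 called members kept their direction with TMM, total counts and DESeq2 size factors, and 10 higher and 13 lower passed under all 3. A change of scaling shifts every log2 ratio by the same amount, so only ratios near 0 could have turned. Over all detected genes 72.1% passed with TMM, and that share is not given here for total counts or DESeq2 size factors. The cluster's share, 0.921%, became 1.19% with both-strand counts, 0.645% without the 5 members that share sequence, and 2.59% with the 10 most abundant genes left out of the total. It was 0.830% to 1.01% with either replicate left out. The share of the 5 leading members became 86.4% with both-strand counts and 83.3% without members that share sequence, and was 80.5% to 82.7% with either replicate left out. The log2 ratio of the summed counts, -0.14, became -0.29 with total counts, -0.067 with DESeq2 size factors, -0.19 without members that share sequence and -0.29 without Mir379. The summed counts of members upstream of the annotated Mirg gene turned from 0.052 to -0.091 with total counts, an alternative chosen after seeing the data. Mir411 turned from -0.13 to 0.024 against the cluster. The both-strand count drops reads of overlapping genes, from the members and from the total alike; the cause of the other shifts was not tested. Low counts, as for Mir410 and Mir377, give wide intervals.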

Other observations

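The hairpin GC content of the 33 detected members correlated with the log2 ratio between the hearts at r = -0.36 (Pearson) and rho = -0.34 (Spearman). The same values over the other 307 detected microRNA genes were -0.27 and -0.26. These are descriptions across genes of 2 libraries, and the part of GC content in the differences was not tested.

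Among seeds found outside the cluster, that of miR-329-3p (ACACACC) was also that of miR-362-3p, that of miR-410-3p (AUAUAAC) was also that of miR-344d-3p and miR-344e-3p, and that of miR-1193-3p (AGGUCAC) was also that of miR-370-5p, from a gene in the same imprinted region.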
